A study of Homo sapiens with 8 samples.

Results

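The inhibitors of DNA binding ID1, ID2, ID3 and ID4, the feedback inhibitors SMAD6, SMAD7, SKIL, SKI and BAMBI, and the protease inhibitor TIMP1 were followed in T47D breast carcinoma cells. The 10 genes were picked by name, after earlier results of the same arrays had shown ID1, ID3 and TIMP1 lower and SKIL higher at day 2 than at day 0. The platform's probe table gave each of them 1 probe set, so the set held 10 of the 18417 genes that a probe set names alone, among 21214 probe sets with any gene name. T47D is an established estrogen receptor positive line. Lentivirus had brought in an inducible hairpin RNA (shRNA) against EglN2 or, in the control line, a hairpin named Scr, and RNA was taken at day 0 (0 h of doxycycline) or at day 2 (48 h), the drug being used at 1 ug/ml. Each of the 4 groups (both lines, each at both days) had 2 arrays. The labels do not say whether a line was a clone or a pool, whether the Scr hairpin also needed doxycycline, or whether the replicates were separate cultures. The p-values therefore rest on a spread between arrays that may be technical.

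Bone morphogenetic proteins (BMPs) and transforming growth factor beta (TGF-beta) bind pairs of receptor kinases, which phosphorylate SMAD proteins that enter the nucleus with SMAD4. ID1, ID2 and ID3 are classical early targets of the BMP branch. ID proteins have a helix-loop-helix but no DNA-binding stretch, and they hold E proteins and other basic helix-loop-helix factors off their E-box sites, which delays differentiation and favours growth in epithelial cells. SMAD6 and SMAD7 block the receptors, SKI and SKIL repress transcription in the nucleus as partners of SMADs, and BAMBI is a receptor-like protein without a kinase domain. TIMP1 is a secreted inhibitor of matrix metalloproteinases.

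All values are RMA log2 levels, on which a difference of 1 is a factor of 2. Over the 21214 named probe sets, replicate arrays correlated at 0.992 to 0.996 and array medians lay between 7.81 and 7.86. EGLN2, the hairpin's target and an oxygen-sensing prolyl hydroxylase, read 8.26 and 8.29 in the EglN2 shRNA line at day 2 and 8.81 to 9.04 on the other 6 arrays; its probe set also carries the RAB4B-EGLN2 read-through. Its day change in that line was -0.67 (SE 0.11; limma, adjusted p = 0.134). The hairpin's own target thus stayed short of an adjusted p of 0.05 with these arrays. All 12 luminal epithelial markers fixed for the check, KRT8, GATA3 and FOXA1 among them, lay above the median level of the named probe sets (7.84), as did 2 of 6 measured basal, 1 of 9 fibroblast, 0 of 6 endothelial and 0 of 7 leukocyte markers. In bulk RNA of this kind, fewer cells with a transcript and less transcript per cell cannot be told apart.

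ID1, ID3 and TIMP1 were lower at day 2 than at day 0 in both lines, by 0.16 to 0.59 on the log2 scale, without passing the test over all probe sets. ID1 and ID3 were also the members whose 2 lowest arrays were the EglN2 shRNA day 2 pair. SKIL read higher at day 2 in the Scr line, with a change of 0.56, and nearly level in the EglN2 shRNA line, with 0.02. In none of the 7 comparisons fitted did a member pass an adjusted p of 0.05 with limma, and EGLN2 did not pass either.

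**Figure D1:**
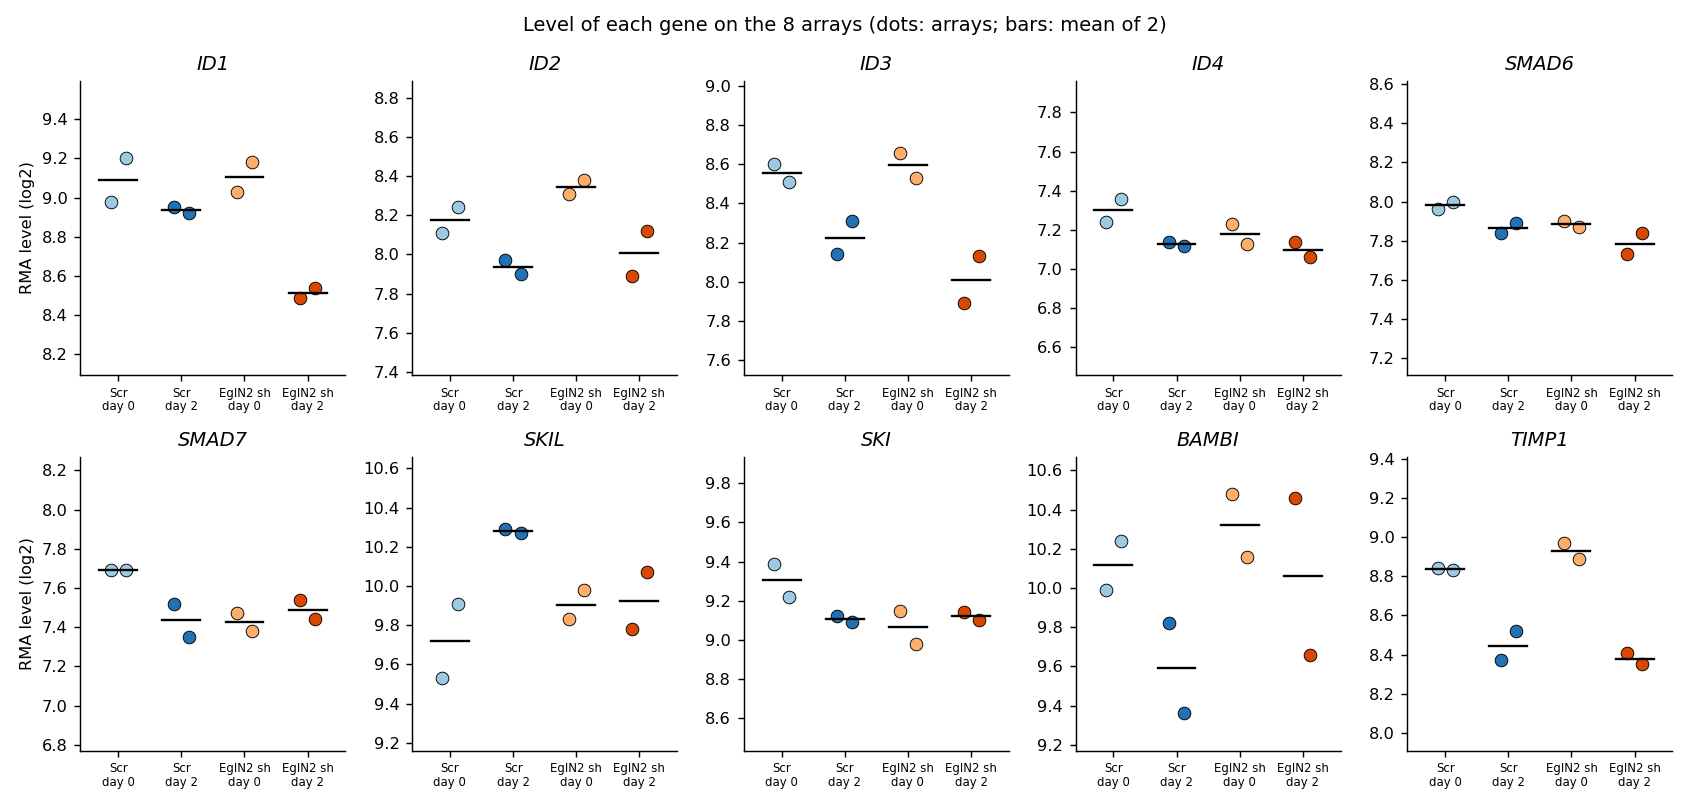
RMA log2 level (y axis) of the 10 genes in the 4 groups of line and day (x axis); each dot is 1 array, each bar the mean of 2, and every panel spans 1.5 log2 units. The means of 7 of the 10 genes, ID1, ID3 and TIMP1 among them, are lower at day 2 in both lines (25.7% of all named probe sets). ID1 is lowest, at 8.49 and 8.54, in the EglN2 shRNA line at day 2.

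The sequences just upstream of ID1, ID3 and TIMP1 are shown because these genes were lower together at day 2, and those of SMAD6 and BAMBI because the former holds a facing pair of SMAD boxes and the latter repeats a GC-rich SMAD element. Each is the 250 bases before the RefSeq start site, written 5′ to 3′ along the gene (RefSeq, GRCh38.p14; 9 of the 10 genes matched, and SKI was not matched). Capitals mark GTCT (the short SMAD box), GGCGCC (a GC-rich SMAD element) and ACGTG (the core of the hypoxia response element), each on either strand.

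ID1, chr20:31605039-31605288, plus strand: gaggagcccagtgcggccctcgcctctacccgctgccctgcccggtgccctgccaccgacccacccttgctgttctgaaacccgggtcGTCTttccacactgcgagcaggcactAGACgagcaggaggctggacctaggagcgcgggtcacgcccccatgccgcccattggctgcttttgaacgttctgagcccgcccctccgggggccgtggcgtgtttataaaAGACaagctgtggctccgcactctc
ID3, chr1:23559502-23559751, minus strand: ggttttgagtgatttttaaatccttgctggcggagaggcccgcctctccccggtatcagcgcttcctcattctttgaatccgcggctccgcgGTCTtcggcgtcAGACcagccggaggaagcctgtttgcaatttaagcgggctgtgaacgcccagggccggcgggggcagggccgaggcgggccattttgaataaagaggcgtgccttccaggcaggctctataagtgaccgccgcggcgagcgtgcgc
TIMP1, chrX:47582186-47582435, plus strand: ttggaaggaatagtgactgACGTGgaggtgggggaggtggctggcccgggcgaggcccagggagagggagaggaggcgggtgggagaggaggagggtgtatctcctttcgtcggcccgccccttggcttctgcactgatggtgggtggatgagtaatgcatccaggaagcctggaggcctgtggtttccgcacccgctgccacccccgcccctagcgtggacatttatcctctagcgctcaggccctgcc
SMAD6, chr15:66701986-66702235, plus strand: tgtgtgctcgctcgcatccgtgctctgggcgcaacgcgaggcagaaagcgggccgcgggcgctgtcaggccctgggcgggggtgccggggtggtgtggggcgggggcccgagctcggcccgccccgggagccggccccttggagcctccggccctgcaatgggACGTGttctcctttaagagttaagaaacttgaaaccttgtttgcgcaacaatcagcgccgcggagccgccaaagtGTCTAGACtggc
BAMBI, chr10:28677271-28677520, plus strand: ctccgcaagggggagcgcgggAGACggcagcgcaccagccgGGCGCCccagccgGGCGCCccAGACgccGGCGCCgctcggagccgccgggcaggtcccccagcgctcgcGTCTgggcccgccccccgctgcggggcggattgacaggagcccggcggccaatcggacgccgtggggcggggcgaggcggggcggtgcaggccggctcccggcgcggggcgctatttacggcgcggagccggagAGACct

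The ID1 stretch held 3 copies of GTCT and that of ID3 held 2, letters that 77.5% of the 35116 promoter stretches of this length hold at least once. The TIMP1 stretch held no GTCT and 1 ACGTG, which 18.5% of the stretches hold at least once. The stretches of SMAD6, ID2 and SKIL also held 1 ACGTG each. SMAD6 carried GTCTAGAC, a pair of facing SMAD boxes that gives 1 GTCT on each strand, beginning 12 bases before the start, and 0.182% of the stretches carry it. BAMBI carried 3 copies of GGCGCC, which 16.4% of the stretches hold at least once, and SKIL carried 1. The BAMBI stretch was 81.2% G and C, beside a median of 58.0% over all stretches. The share of stretches with 3 copies was not counted. These matches describe the letters of the window, not binding.

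ID1, which restrains differentiation by trapping E proteins, read 8.98 and 9.20 in the Scr line at day 0, 8.95 and 8.92 in that line at day 2, 9.03 and 9.18 in the EglN2 shRNA line at day 0, and 8.49 and 8.54 there at day 2. The EglN2 shRNA day 2 pair lay 0.38 below the lowest of the other 6 arrays. In order of group mean, EglN2 shRNA day 0 (9.11) and Scr day 0 (9.09) overlapped, Scr day 2 followed (8.94), and EglN2 shRNA day 2 came last (8.52). The day change was -0.59 (SE 0.11, 95% confidence interval -0.84 to -0.34) in the EglN2 shRNA line, a day 2 level 66.4% of that at day 0. In the Scr line it was -0.16 (SE 0.11, interval -0.41 to 0.10), moving to -0.04 without day 0 replicate 2 and to -0.26 without day 0 replicate 1. ID1's stretch upstream, printed above, has its GTCT letters at 162, 136 and 25 bases before the start.

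ID3, a close relative of ID1 with the same mode of action, read 8.60 and 8.51 in the Scr line at day 0 and 8.14 and 8.31 at day 2. The EglN2 shRNA line gave 8.66 and 8.53 before doxycycline and 7.89 and 8.13 after it. All 4 day 2 arrays lay at least 0.20 below all 4 day 0 arrays. The day change was -0.58 (SE 0.12, interval -0.86 to -0.31) in the EglN2 shRNA line and -0.33 (SE 0.12, interval -0.60 to -0.06) in the Scr line. The 2 lines overlapped at day 0, and at day 2 their closest arrays, 8.13 and 8.14, were 0.01 apart.

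ID2, the ID protein best known for its part in mammary and neural differentiation, read 8.11 and 8.24 in the Scr line at day 0 and 7.97 and 7.90 at day 2. The EglN2 shRNA line gave 8.31 and 8.38 before doxycycline and 7.89 and 8.12 after it. Within each line the days did not overlap, with changes of -0.34 (SE 0.11) in the EglN2 shRNA line and -0.24 (SE 0.11) in the Scr line. The first of these was -0.22 without the EglN2 shRNA day 2 replicate 1 array and -0.46 without replicate 2. ID4, which differs from its relatives in that it can oppose the other ID proteins, ranged over 0.30, from 7.06 to 7.36. Its day changes were -0.17 (SE 0.10) in the Scr line and -0.08 (SE 0.10) in the EglN2 shRNA line, so its 2 intervals both held 0.

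The inhibitory SMADs had narrow ranges over the 8 arrays, 0.27 for SMAD6 and 0.34 for SMAD7. SMAD6, which mainly restrains BMP receptors and carries the GTCTAGAC shown above, ranged from 7.73 to 8.0, with day changes of -0.11 (SE 0.10) in the Scr line and -0.10 (SE 0.10) in the EglN2 shRNA line. SMAD7, which restrains both TGF-beta and BMP receptors, read 7.69 on both Scr day 0 arrays and between 7.35 and 7.54 on the other 6. Its day change was -0.26 (SE 0.11, interval -0.49 to -0.02) in the Scr line and 0.06 (SE 0.11, interval -0.17 to 0.30) in the EglN2 shRNA line. The high reading of SMAD7 was therefore that of 1 group, the Scr line before doxycycline.

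SKIL, a nuclear repressor of SMAD target genes that is itself induced by TGF-beta, read 9.53 and 9.91 in the Scr line at day 0 and 10.29 and 10.27 at day 2. The corresponding EglN2 shRNA arrays gave 9.83 and 9.98, then 9.78 and 10.07. The Scr day 2 pair lay above all other arrays, and the days overlapped in the EglN2 shRNA line. The day change was 0.56 (SE 0.15, interval 0.23 to 0.89) in the Scr line, 0.37 without its day 0 replicate 1 and 0.75 without its day 0 replicate 2. With the EglN2 hairpin it was 0.02 (SE 0.15, interval -0.31 to 0.35). SKI, the related repressor, ranged from 8.98 to 9.39, with its 2 highest readings, 9.39 and 9.22, in the Scr line at day 0. Its day changes were -0.20 (SE 0.11) in the Scr line and 0.06 (SE 0.11) in the EglN2 shRNA line.

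BAMBI, the pseudoreceptor that dampens TGF-beta and BMP signals, had the widest range of the 10 genes, 1.12, and the widest gap between replicates. It read 9.99 and 10.24 in the Scr line at day 0, 9.82 and 9.36 there at day 2, 10.48 and 10.16 in the EglN2 shRNA line at day 0, and 10.46 and 9.66 there at day 2. The Scr day 2 arrays lay below the Scr day 0 arrays, and in the EglN2 shRNA line the days overlapped. The day change was -0.53 (SE 0.25, interval -1.08 to 0.03) in the Scr line, moving to -0.30 without day 2 replicate 2 and to -0.76 without day 2 replicate 1. In the EglN2 shRNA line it was -0.26 (SE 0.25, interval -0.82 to 0.30), turning to 0.14 without day 2 replicate 2 and reading -0.66 without day 2 replicate 1.

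TIMP1 showed the cleanest split by day. It read 8.84 and 8.83 in the Scr line at day 0, 8.37 and 8.52 there at day 2, 8.97 and 8.89 in the EglN2 shRNA line at day 0, and 8.41 and 8.35 there at day 2. The 4 day 2 arrays lay at least 0.31 below the 4 day 0 arrays, the widest such gap among the 10 genes. The day change was -0.55 (SE 0.10, interval -0.78 to -0.32) in the EglN2 shRNA line and -0.39 (SE 0.10, interval -0.62 to -0.16) in the Scr line. Averaged over both lines it was -0.47 (SE 0.07), a day 2 level 72.2% of that at day 0, and with any 1 array left out it stayed between -0.51 and -0.43.

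**Figure D2:**
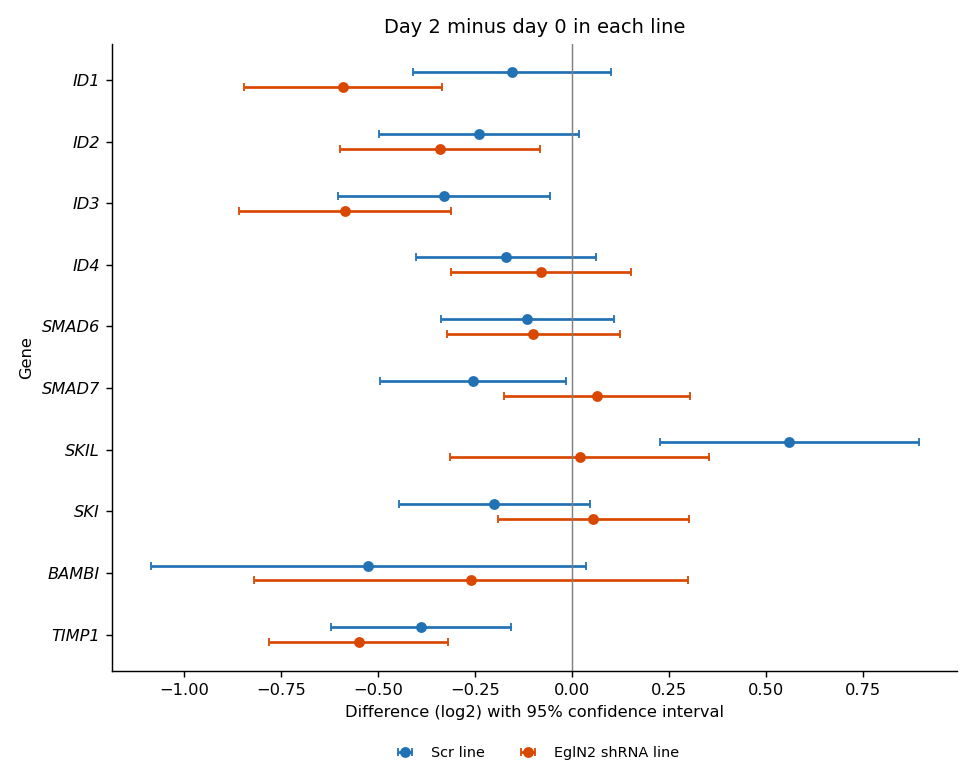
Day 2 minus day 0 difference (x axis, log2) of the 10 genes (y axis) in the Scr line (blue) and the EglN2 shRNA line (orange); dots are estimates over 2 against 2 arrays and bars are 95% confidence intervals from limma. TIMP1 (-0.39 and -0.55) and ID3 (-0.33 and -0.58) are negative with intervals short of 0 in both lines, ID1 in the EglN2 shRNA line, and SKIL is positive in the Scr line.

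The day changes had served to choose the genes, so their counts are a description. In the EglN2 shRNA line the days did not overlap for 5 of 10 genes, all lower at day 2 (ID1, ID2, ID3, SMAD6 and TIMP1), where 15.5% of all named probe sets were lower without overlap. An adjusted p under 0.05 was reached by 0 of 10 with limma (0.00943% of all named probe sets), and an unadjusted p under 0.05 by 4 of 10 (5.77% of all). In the Scr line the days did not overlap for 10 of 10 genes, 9 lower and SKIL higher, where 47.8% of all named probe sets did not overlap. None passed there with limma (0 of 10, and 0% of all), while 4 of 10 had an unadjusted p under 0.05 (12.9% of all). The median day change of the 10 genes was -0.18 in the EglN2 shRNA line and -0.22 in the Scr line, beside 0.005 and -0.01 over all named probe sets.

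Averaged over both lines, 9 of 10 genes had a negative day change, with a median of -0.21 beside -0.005 over all named probe sets. All day 2 arrays lay below all day 0 arrays for 3 of 10 genes (ID1, ID3 and TIMP1), a split seen in that direction for 2.11% of all named probe sets. The gap was only 0.03 for ID1, beside 0.20 for ID3 and 0.31 for TIMP1. With limma 0 of 10 passed (0.141% of all), and 5 of 10 had an unadjusted p under 0.05 (10.7% of all). TIMP1 had the smallest adjusted p of the 10 genes (limma, 0.0556), and under 3 of the alternative settings it fell below 0.05. It was 0.0311 with the replicate number added to the fit and 0.239 with all probe sets of the table. TIMP1 was picked with its day change known, so these p-values are a description and no test is read from them. The EglN2 shRNA change minus the Scr change was -0.44 for ID1 (SE 0.16, interval -0.79 to -0.08), -0.54 for SKIL (SE 0.21, interval -1.01 to -0.07) and 0.32 for SMAD7 (SE 0.15, interval -0.02 to 0.66). For TIMP1 it was -0.16 (SE 0.15, interval -0.49 to 0.17) and for ID3 -0.26 (SE 0.17, interval -0.64 to 0.13), so a difference between the lines of the size seen for ID1 lay inside the intervals of both. With limma 0 of 10 passed in this difference (0% of all), and 2 of 10 had an unadjusted p under 0.05 (7.12% of all).

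The comparison of the lines over both days asked whether the genes were set differently in the EglN2 shRNA line whatever the day. Its estimate is uncorrelated with both day changes, so it was tested, though the genes were chosen with earlier results of these arrays known. The spread in its p-values is the same as for the day changes, so the p-values are not fully independent of that choice. ID1 had the most negative difference, -0.20 (SE 0.08, interval -0.38 to -0.02; limma, adjusted p = 0.611), and the lines overlapped. BAMBI gave the largest positive difference, 0.34 (SE 0.18, adjusted p = 0.664 with limma), which was 0.14 without EglN2 shRNA day 2 replicate 1, 0.54 without replicate 2 of that group and 0.22 without Scr day 2 replicate 2. The other 8 genes lay between -0.11 and 0.12, with adjusted p between 0.719 and 0.960. With limma 0 of 10 passed, where 0.0330% of all named probe sets did, and 1 of 10 had an unadjusted p under 0.05 (8.07% of all). For TIMP1 the difference was 0.02 (SE 0.07, interval -0.15 to 0.18).

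The lines at each day use the same arrays as the day changes that chose the genes, so these differences are a description too. At day 0, SMAD7 read -0.27 (SE 0.11, interval -0.50 to -0.03) and SKI -0.24 (SE 0.11) in the EglN2 shRNA line relative to Scr. ID1 (0.02), ID3 (0.04) and TIMP1 (0.09, SE 0.10) differed little before doxycycline. The lines did not overlap for 6 of 10 genes, beside 45.0% of all named probe sets. With limma 0 of 10 passed (0% of all), and 1 of 10 had an unadjusted p under 0.05 (10.4% of all).

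At day 2, ID1 was 74.7% of its Scr level in the EglN2 shRNA line, a difference of -0.42 (SE 0.11, interval -0.67 to -0.17). Both EglN2 shRNA arrays lay below both Scr arrays, and the difference stayed between -0.45 and -0.39 with any 1 array left out. SKIL differed by -0.36 (SE 0.15, interval -0.69 to -0.02), and by -0.21 without EglN2 shRNA day 2 replicate 1 and -0.50 without replicate 2 of that group. ID3 differed by -0.21 (SE 0.12), and by -0.10 and -0.34 without the same arrays in turn and -0.13 without Scr day 2 replicate 2. The lines did not overlap for these 3 of 10 genes, all lower, beside 14.8% of all named probe sets that were lower without overlap. With limma 0 of 10 passed (0.0754% of all), and 2 of 10 had an unadjusted p under 0.05 (5.19% of all). TIMP1 differed by -0.06 (SE 0.10, interval -0.30 to 0.17).

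**Figure D3:**
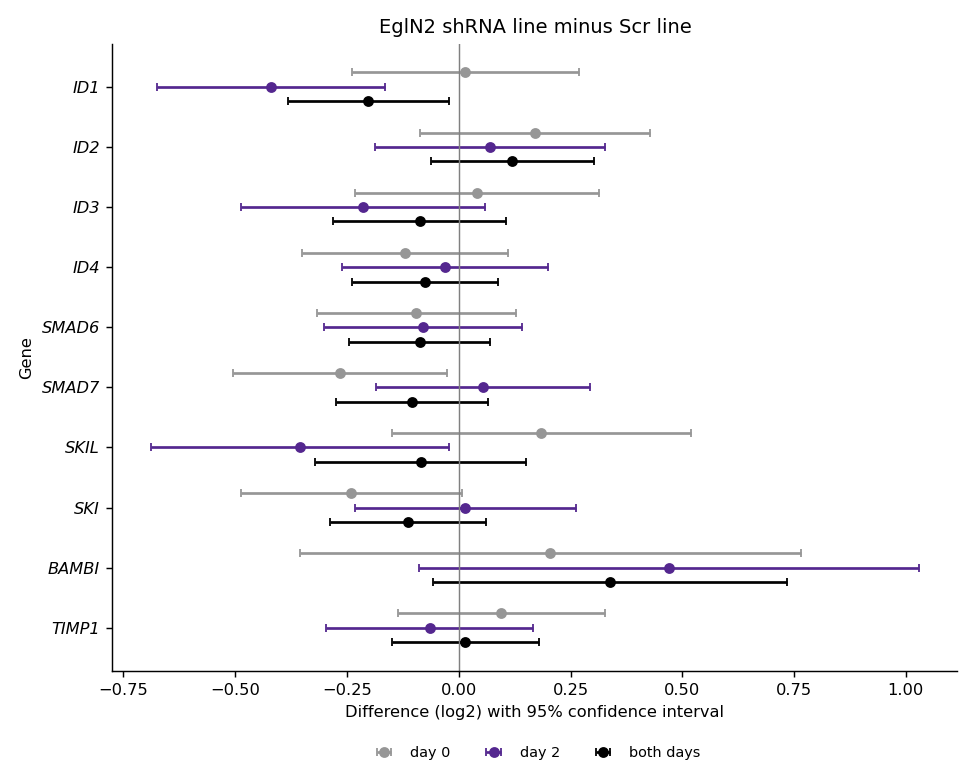
EglN2 shRNA line minus Scr line (x axis, log2) for the 10 genes (y axis) at day 0 (grey), at day 2 (purple) and over both days (black); dots are estimates and bars 95% confidence intervals from limma. ID1 is near 0 at day 0 (0.02) and at -0.42 at day 2, and TIMP1 stays near 0 in all 3.

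Related genes were described from 9 lists holding 147 genes other than these 10, of which 140 were measured. The lists cover the BMP and TGF-beta pathway, its target genes, helix-loop-helix partners of ID, and the TIMP and metalloproteinase families. Of the 140, 0 rose and 0 fell past an adjusted p of 0.05 with limma in each of the 7 comparisons. In the EglN2 shRNA line's day change 9 of 140 had an unadjusted p under 0.05 (5.77% of all named probe sets did), and in the Scr line's 23 of 140 (12.9% of all). The median day change of the 140 genes was 0.02 in the EglN2 shRNA line and -0.07 in the Scr line. The ID, feedback and TIMP1 genes therefore had a lower median in both lines than the 140 list genes, a contrast that their choice had built in.

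Among the ligands, BMP4 read 8.09 and 8.48 in the Scr line at day 0 and 8.62 to 8.74 on the other 6 arrays. Its Scr day change was 0.39 (SE 0.13), against -0.01 (SE 0.13) in the EglN2 shRNA line. The 14 BMP ligands had a median day change of -0.24 in the Scr line and 0.02 in the EglN2 shRNA line. Among them only BMP4, GDF7 and BMP8B had a mean level above the median of named probe sets (7.84). BMP10 (4.78) and BMP5 (5.13) were the dimmest, so the list medians rest mostly on low readings. INHBE, an activin subunit gene, was higher at day 2 in both lines, with day changes of 0.46 (SE 0.11) and 0.38 (SE 0.11) in the EglN2 shRNA and Scr lines. The median of the 15 TGF-beta and activin ligands was 0.13 in the EglN2 shRNA line and -0.09 in the Scr line.

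Among receptors and SMADs, TGFBR1, the kinase receptor of TGF-beta, had the smallest p of its list between the lines. It read 9.92 to 10.37 in the Scr line and 10.33 to 10.78 in the EglN2 shRNA line, a difference over both days of 0.40 (SE 0.09; limma, adjusted p = 0.291). SMAD3, which carries TGF-beta signals, differed by 0.26 (SE 0.08; limma, adjusted p = 0.486). SMAD5, which carries BMP signals, had a day change of 0.45 (SE 0.15) in the Scr line and -0.06 (SE 0.15) in the EglN2 shRNA line. It read 8.83 and 9.17 in the Scr line at day 0 and 9.24 to 9.54 on the other 6 arrays. Low or high Scr day 0 readings were not particular to these genes. An unadjusted p under 0.05 (limma) was reached by 12.9% of all named probe sets in the Scr day change and 5.77% in the EglN2 shRNA one. Of the 6 receptor-regulated and common SMADs, 5 had a positive day change in the Scr line and 2 in the EglN2 shRNA line.

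Among inhibitors, TGIF1, a homeodomain repressor that binds SMADs, differed between the lines by 0.41 over both days (SE 0.10; limma, adjusted p = 0.324), with 11 of 13 genes of its list positive. FSTL1, a secreted follistatin relative, had day changes of 0.62 (SE 0.17) in the Scr line and 0.40 (SE 0.17) in the EglN2 shRNA line. Of the 35 measured SMAD target genes, 17 had a positive and 17 a negative day change in the EglN2 shRNA line, with a median of 0.0. LMCD1, a transcriptional cofactor on that list, went the other way from ID1, with 0.62 (SE 0.18) there and 0.48 (SE 0.18) in the Scr line. The E proteins and other helix-loop-helix partners of ID had a median day change of 0.0025 in the EglN2 shRNA line and -0.12 in the Scr line over 10 measured genes. TWIST1, a helix-loop-helix factor of mesenchymal cells, differed between the lines by -0.24 over both days (SE 0.07; limma, adjusted p = 0.452).

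The TIMP and metalloproteinase list, the enzymes and inhibitors around TIMP1, had 21 measured genes with median day changes of 0.0 in the EglN2 shRNA line and -0.15 in the Scr line. MMP16, a membrane-bound metalloproteinase, read 6.79 and 6.71 in the Scr line at day 0 and 6.38 and 6.28 at day 2, with changes of -0.42 (SE 0.15) there and -0.51 (SE 0.15) in the EglN2 shRNA line. The sheddase ADAM10 differed between the lines by 0.33 over both days (SE 0.09; limma, adjusted p = 0.421).

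**Figure D4:**
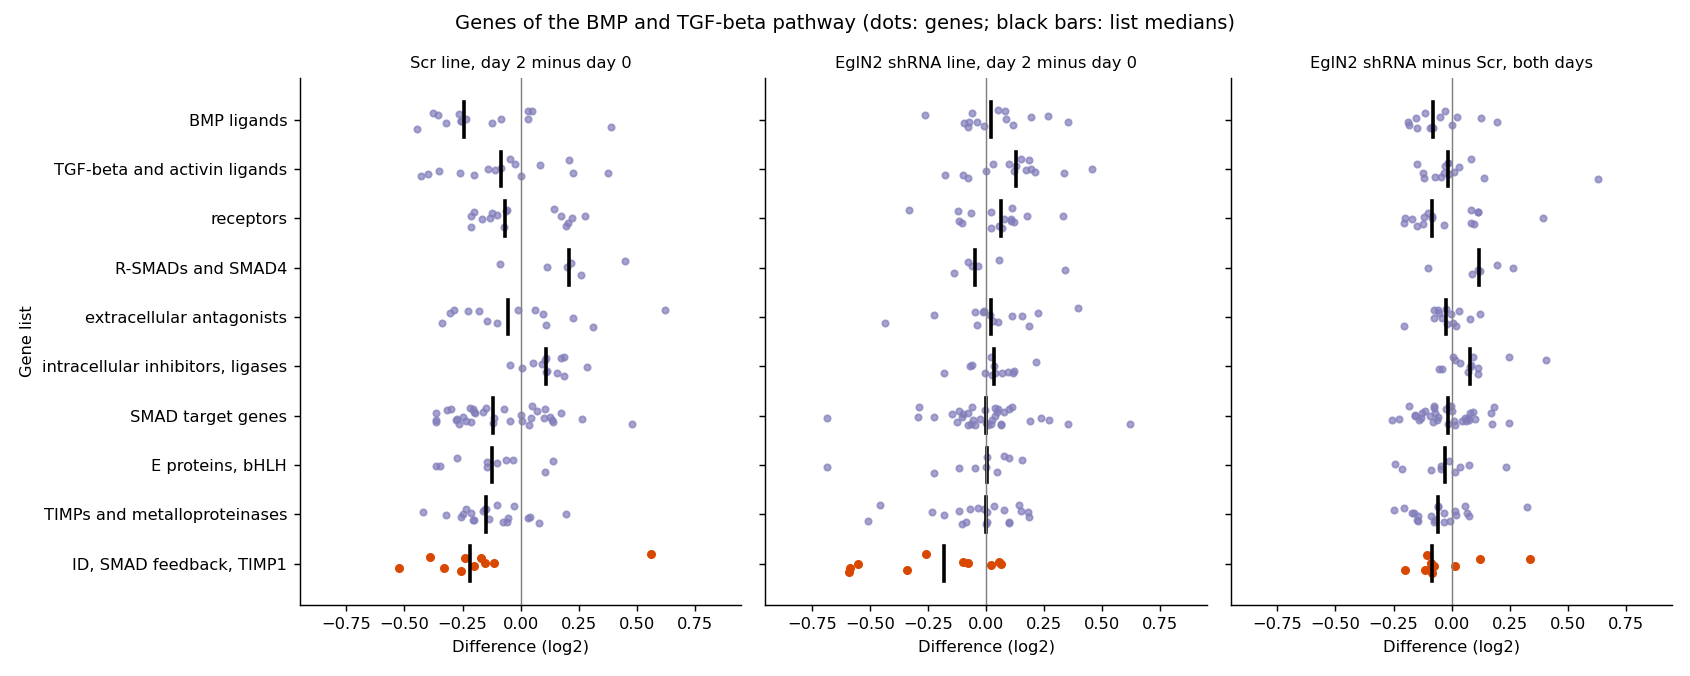
Differences (x axis, log2) of the genes of the 9 lists (purple dots) and of the 10 genes described here (orange dots), by list (y axis). Panels show the day change in each line and the line difference over both days, and black bars are list medians. The medians of the SMAD target list are -0.12, 0.0 and -0.01 in the panels from left to right, and those of the 10 genes are -0.22, -0.18 and -0.09.

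The levels of the 10 genes were set against each other over the 8 arrays as a description; the arrays share their groups, so such correlations repeat the group means. TIMP1 and ID3 ran closest (r = 0.925), followed by SMAD7 and SKI (r = 0.850), SMAD6 and ID3 (r = 0.825) and ID1 and ID3 (r = 0.820). SKIL ran against most of the set, with r from -0.673 (SKI) to -0.008 (ID1).

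Of the 3514 probe sets with a single gene name and an SD of at least 0.2 over the 8 arrays, those most like ID1 were B4GALT6 (r = 0.960), GCLM (0.953), CPNE3 (0.948), MPZL3 (0.947) and CCDC86 (0.945). B4GALT6 makes lactosylceramide, GCLM is the regulatory subunit of glutathione synthesis and CPNE3 a calcium-dependent membrane-binding protein. B4GALT6 was dim, with a mean of 5.98, under the 6 used as a filter on dim probe sets. GCLM read 6.81 and 6.91 in the EglN2 shRNA line at day 2 and 7.15 to 7.64 on the other 6 arrays, the same low pair as in ID1. Such a low pair was seen for ID1 and ID3 among the 10 genes and for 3.79% of all named probe sets.

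The genes most like TIMP1 were CYP1B1 (r = 0.961), MEGF9 (0.960), NQO1 (0.956), OR14C36 (0.945) and FERMT2 (0.939), and ID3 ranked 7. CYP1B1 is a cytochrome P450 of estrogen and aromatic hydrocarbon metabolism, NQO1 a quinone reductase and FERMT2 an integrin adaptor. CYP1B1 had day changes of -0.89 in the EglN2 shRNA line and -0.84 in the Scr line, and NQO1 -0.56 and -0.63. FERMT2 read -0.56 and -0.24 and OR14C36 -0.52 and -0.37 in the same order, so the balance between the lines varied among the 5. OR14C36 was dim, with a mean of 6.44 beside a median of 7.84 over named probe sets.

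**Figure D5:**
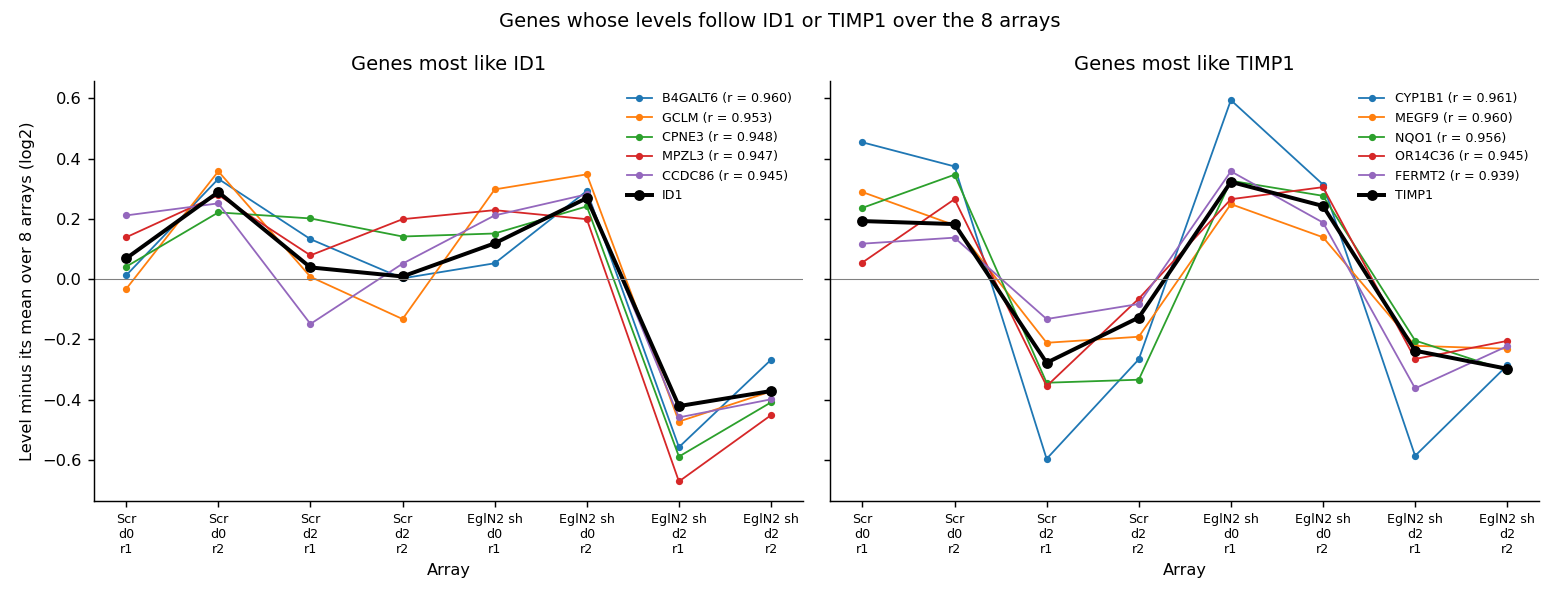
Level minus its mean over the 8 arrays (y axis, log2) for ID1 and TIMP1 (black) and the 5 genes most correlated with each (colours), by array (x axis; d, day; r, replicate); lines join the arrays of a gene for the eye. The ID1 group (r from 0.945 to 0.960) is low on the EglN2 shRNA day 2 pair, and the TIMP1 group (r from 0.939 to 0.961) on all 4 day 2 arrays.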

How the data were processed

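Biotin-labelled RNA of 8 samples was measured on arrays. Each deposited value is the log2 level of 1 probe set. According to the submitters' processing notes the authors used RMA and Affymetrix Expression Console, with no versions named. RMA subtracts background, puts arrays on a common scale and compresses differences of dim genes. Values were used as deposited.

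Of 33297 probe sets, 19460 had 1 gene name, 1754 several and 12083 none in the platform's table. Names were updated by gene ID through RefSeq (GRCh38.p14), which matched 19429. The 4 group means were estimated from the 8 arrays together (limma 3.58.1, R 4.3.3, lmFit and eBayes; 4 residual and 5.53 prior degrees of freedom), two-sided, with Benjamini-Hochberg adjustment over 21214 named probe sets and a threshold of 0.05. An exact permutation test of 2 against 2 arrays was not run, since it cannot reach that threshold. The script was tested on simulated data.

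The genes and lists were chosen with earlier results of these data known, the day changes above all. A test was therefore read only for the line difference over both days. Its estimate is uncorrelated with the day changes, though it shares their estimate of the spread. List genes are represented by the probe set with the highest mean. Named list genes have the smallest p of their list, up to 2 between the lines and up to 2 in the day changes, and a selection of these is printed. Correlated genes are the top 5. The alternatives are given in the closing section. Precision is limited by the number of arrays: the median SE of a difference between 2 groups was 0.12. Same-numbered replicates deviated together at r of 0.098 to 0.271, positive in all 6 pairs of groups. The rule for pairing was narrowly missed in 1 of the 6. The SEs and intervals of the Results therefore carry no replicate term, and some would be smaller with it.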

Additional observations from a re-analysis of the deposited data

How the results depend on the processing

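All 10 genes passed the filter on dim probe sets (a mean of at least 6). Member values were refitted with the replicate block, the prior variance following intensity, the filter, centring on array medians, all probe sets, or only the compared groups' arrays. All 390 kept their direction and moved by less than the replicate spread or kept their side of the threshold, as tested. Of these settings only centring can move a difference, because the design is balanced. The others can change only the SE and the adjusted p, so their agreement in direction and size was fixed in advance. The count of members called stayed at 0 except in the day change over both lines. There TIMP1 (adjusted p = 0.0556 with limma) made it 1 with the replicate block (adjusted p = 0.0311), 1 with the prior variance following intensity (0.0335) and 1 with the filter (0.0408). With all probe sets of the table its adjusted p was 0.239. TIMP1 was picked with its day change known, so no test is read from these values. Replicate numbers narrowly missed the rule for pairing, so the main fit leaves the replicate block out. In the Scr day change the block moved the SE from 0.149 to 0.118 for SKIL and from 0.25 to 0.199 for BAMBI. For TIMP1 the SE went from 0.103 to 0.104 with the block. With it the named probe sets called went from 7 to 18 for the line difference over both days, from 16 to 32 at day 2, from 2 to 13 for the EglN2 shRNA day change, from 0 to 42 for the Scr day change and from 30 to 150 for the day change over both lines. With the prior variance following intensity the 7, 16 and 30 became 14, 26 and 76 and the 0 of the Scr day change became 6. The 7 became 11 with the filter and 4 with centring. With all probe sets of the table the 7, 16, 2 and 30 became 0, and with only the compared arrays the 16 and the 2 became 0. The difference of changes had 2 called with the prior variance following intensity and 0 otherwise. Without 1 array the 30, 16, 7 and 2 went down to as few as 0.

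Leaving out 1 array at a time, the count of members called stayed at 0, and 14 of 240 line differences turned direction. At day 0 the ranges were -0.095 to 0.125 for ID1, -0.025 to 0.105 for ID3 and -0.005 to 0.375 for SKIL. At day 2 they were -0.045 to 0.185 for ID2, -0.07 to 0.01 for ID4, -0.03 to 0.14 for SMAD7, -0.005 to 0.035 for SKI and -0.14 to 0.01 for TIMP1. Over both days they were -0.18 to 0.01 for SKIL and -0.0225 to 0.0525 for TIMP1. Of 320 day comparisons 12 moved by more than the replicate spread, those of SKIL, ID2 and BAMBI. Ranges of day values that crossed 0 were -0.03 to 0.14 for SKI, -0.125 to 0.165 for SKIL and -0.66 to 0.14 for BAMBI in the EglN2 shRNA line. In the difference of changes they were -0.04 to 0.07 for SMAD6, -0.215 to 0.015 for ID2 and -0.135 to 0.665 for BAMBI. ID1's difference of changes ran from -0.545 to -0.325. The cause was not tested.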
